A study of Mus musculus with 12 samples.

Results

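The hepatic acute phase genes were examined in livers of Apoe-/-AhR-/- mice and of Apoe-/- control mice. The set held 34 genes chosen by name, from a count table of 27304 genes. It covered the secreted acute phase proteins (serum amyloids, pentraxins, orosomucoids, fibrinogen and others), hepcidin, the metallothioneins, and the IL-1, IL-6 and STAT3 proteins that control them. All 34 were found in the table, and all 34 had counts high enough to be tested.

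RNA-seq libraries of total RNA came from 12 livers in 4 groups of 3: Apoe-/-AhR-/- males, Apoe-/- males, Apoe-/-AhR-/- females and Apoe-/- females. The mice lacking both genes are called Ahr-null here, and those lacking Apoe alone are called controls. Apoe encodes apolipoprotein E, which clears lipoprotein remnants, so every mouse, controls included, carried a lesion that raises plasma cholesterol and predisposes to atherosclerosis. Ahr encodes the aryl hydrocarbon receptor, a ligand-activated transcription factor. All mice had eaten a diet labelled HFD for 12 weeks, and the age label gives that time alone. The labels name neither the Ahr allele nor the deleted part, and no wild-type or unchallenged mice were analysed here. In whole liver, fewer cells of a type and less RNA per cell cannot be told apart.

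Libraries held 9794253 to 18924880 counts, and levels are given as counts divided by library size (CPM, scaled between libraries by TMM). The labelled tissue was checked by 8 hepatocyte markers, all of them counted, which summed to 20037 to 74208 CPM. Ahr itself was counted over the whole gene at 12.4 to 25 CPM, with Ahr-null and control livers overlapping (0.13 ± 0.18 on the log2 scale, adjusted p = 0.800), so its counts do not check the genotype. Cyp1a2, a classic Ahr target, had 55.7 to 217 CPM in Ahr-null males, 739 to 1169.5 in control males, 47 to 102 in Ahr-null females and 452 to 675 in control females. A pair of libraries stood apart by transcripts of neurons and glia, at 412 CPM in Ahr-null female 1 and 221 CPM in control male 1, against 12.4 to 39.7 CPM in the others. Ahr-null female 1 also correlated with its group at only 0.805 and 0.811 (Pearson's r of log2 CPM across genes), against 0.938 to 0.979 for all pairs of libraries in the other groups and the remaining pair in its own. Mitochondrial genes took 30.5% to 59.8% of the counts in Ahr-null libraries and 46.7% to 69.8% in control libraries. Red blood cell markers summed to 101 to 641 CPM in Ahr-null livers and 56.5 to 197 CPM in control livers, and all 5 that were tested had positive differences with an unadjusted p under 0.05, none called. T and NK cell markers summed to 3.57 to 13.2 CPM in Ahr-null livers and 2.1 to 5.74 CPM in control livers, with 4 of 5 tested under the same p and none called. B and plasma cell markers summed to 6.98 to 15.4 CPM in Ahr-null livers and 2.86 to 6.76 CPM in control livers. Of these, 3 of 5 tested were under the same p and none was called. These marker tests compared Ahr-null with control livers averaged over the sexes, where 15.3% of all genes were under the same p. The part of these cell markers in the results below was not tested. Values with both neural-marked libraries left out stand beside the results that they move most.

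During infection, injury or other inflammation, IL-1, IL-6 and related cytokines reach the liver. There they act through NF-kB, C/EBP and STAT3, and hepatocytes change which plasma proteins they make. Serum amyloid A, C-reactive protein, orosomucoid, haptoglobin, fibrinogen and hepcidin belong to the proteins that can go up, while albumin and transthyretin go down. In the mouse, serum amyloids are the strongly induced members and C-reactive protein responds little. Of these genes several lie side by side as copies of one ancestor.

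The regulatory sequences of the 3 called members, Orm3, Saa3 and Hamp2, are shown, and those of Orm2 and Hamp, neighbouring copies of Orm3 and Hamp2 that were not called with all libraries. RefSeq promoters of build GRCm38.p6, read as 250 bases before to 50 bases after the start of transcription, were found for 28 of the 34 members. They were not found for Orm1, Hp, Fgl1, Serpina3m, Lbp and Cd14. Printed are the 250 bases before the start, 5′ to 3′, with capitals marking matches on either strand to TTGCNNAA or TTNNGNAAT (C/EBP type), TTCNNNGAA (STAT type) or GCGTG (the core that the Ahr and Arnt pair binds). The windows are chr4:63355908-63356157 on the plus strand for Orm3, chr4:63362199-63362448 on the plus strand for Orm2, chr7:46715677-46715926 on the minus strand for Saa3, chr7:30924182-30924431 on the minus strand for Hamp2 and chr7:30944030-30944279 on the minus strand for Hamp.
Orm3: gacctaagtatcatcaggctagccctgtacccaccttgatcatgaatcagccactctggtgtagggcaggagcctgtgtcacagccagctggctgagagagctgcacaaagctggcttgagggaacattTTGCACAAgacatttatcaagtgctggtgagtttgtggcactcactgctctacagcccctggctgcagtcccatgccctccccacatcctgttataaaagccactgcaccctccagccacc
Orm2: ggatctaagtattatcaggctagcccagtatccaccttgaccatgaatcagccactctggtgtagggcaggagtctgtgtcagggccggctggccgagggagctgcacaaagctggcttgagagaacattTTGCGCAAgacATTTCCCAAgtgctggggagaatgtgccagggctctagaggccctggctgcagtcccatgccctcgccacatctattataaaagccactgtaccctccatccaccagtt
Saa3: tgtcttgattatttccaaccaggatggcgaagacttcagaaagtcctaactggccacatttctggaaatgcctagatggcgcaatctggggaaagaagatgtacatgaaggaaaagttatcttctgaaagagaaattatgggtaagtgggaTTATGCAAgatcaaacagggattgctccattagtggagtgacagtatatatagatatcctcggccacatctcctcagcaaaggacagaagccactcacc
Hamp2: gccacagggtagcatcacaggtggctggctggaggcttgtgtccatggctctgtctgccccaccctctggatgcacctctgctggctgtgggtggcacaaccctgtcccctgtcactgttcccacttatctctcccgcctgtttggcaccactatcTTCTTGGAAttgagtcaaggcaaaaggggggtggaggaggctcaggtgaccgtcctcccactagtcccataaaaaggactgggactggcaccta
Hamp: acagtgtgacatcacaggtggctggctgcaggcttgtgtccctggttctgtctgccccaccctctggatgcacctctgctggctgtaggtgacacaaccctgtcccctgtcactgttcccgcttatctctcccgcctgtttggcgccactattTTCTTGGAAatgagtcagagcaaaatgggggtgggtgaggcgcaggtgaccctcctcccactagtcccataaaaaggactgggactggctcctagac
Orm3 and Orm2 each held a TTGCNNAA match about 120 bases before the start, at -121 in Orm3 and at -120 in Orm2. Orm2 had in addition a TTNNGNAAT match at -109 that the Orm3 window did not hold. Saa3 had its TTGCNNAA match at -99, and Hamp2 and Hamp had the same STAT-type run at -94 and -97. Aligned without gaps, the full windows of Hamp2 and Hamp were identical at 92.9% of bases, and those of Orm3 and Orm2 at 61.9%. A single fixed offset was used for each pair, so an inserted or missing base lowers the value. The percentages therefore do not rank how far the pairs have diverged.

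Across the 28 promoters, TTGCNNAA was found in 13 (46.4%), against 10.8% of 27025 gene promoters of the same length. TTNNGNAAT was found in 9 (32.1%, against 11.6%), and in Saa1, Saa2 and Steap4 it overlapped the TTGCNNAA match. TTCNNNGAA was found in 8 (28.6%, against 8.47%), in Apcs, Hamp, Hamp2, Steap4, Fga, Fgb, Itih4 and Socs3. GCGTG was found in 7 (25%, against 32.5%), in Fgg, Mt1, Mt2, Il1rn, Il1r1, Il6ra and Stat3, and not within the windows of Orm3, Saa3 or Hamp2. For NF-kB a single form of the consensus was searched, and other forms were not. It was found in 0 of 28, against 0.385% of all promoters (104 of 27025). A motif so rare would be absent from most sets of 28 promoters. The 0 therefore does not show that these promoters lack NF-kB sites. Metal response motifs were searched too and are not marked in the printed windows. TGCACNC was found in 5 (17.9%, against 12.4%), in Orm3 at -17 and in Fga, Mt1, Mt2 and Il1r1. TGCGCNC was found in 3 (10.7%, against 15.5%), in Fgg, Mt1 and Mt2. These are matches of letters within 300 bases, and neighbouring copies share sequence, so the 28 are not independent.

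Levels per length placed abundant plasma proteins at the top, with signalling genes and less abundant plasma proteins mixed further down. Averaged over the 12 livers, levels scaled by exon length and library size (RPKM) were 1555 for Hp, 1013 for Hpx, 926 for Hamp and 488 for Orm1. The proteins of these genes carry free haemoglobin (haptoglobin), free haem (hemopexin), restrict iron export (hepcidin), and bind small lipophilic molecules (orosomucoid). Next came Fgb at 209, Itih3 at 208, Fgg at 157, Itih4 at 146 and Mt1 at 137 RPKM. The induced serum amyloids were low on the same scale, at 7.58 for Saa1, 7.43 for Saa3 and 4.83 for Saa2 RPKM, while Saa4, which is made constitutively, stood at 64.7. Steap4 at 1.78 and Il1rn at 0.805 RPKM closed the order. The place of Hpx rests on Ahr-null female 1: over the other 11 livers, a choice made after the data were seen, the means were 1464 RPKM for Hp, 909 for Hamp, 704 for Hpx and 458 for Orm1. Together the 34 genes made up 6489 to 16796 CPM per library, with the highest sum in Ahr-null female 1 and the lowest in Ahr-null female 2.

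Averaged over the sexes, 2 of the 34 genes differed between Ahr-null and control livers, and both were lower in Ahr-null livers: the orosomucoid Orm3 and the serum amyloid Saa3. A gene is called here at an adjusted p under 0.05 in edgeR's quasi-likelihood test with Benjamini-Hochberg adjustment over all 13641 genes tested. In that comparison 1.06% of all genes were called, with 0.528% of all genes called as lower. The other 32 members were not called, and 7 members in all had an unadjusted p under 0.05, where 15.3% of all genes did. The median log2 fold change over the members was 0.02, against 0.04 over all genes, with 18 members positive and 16 negative. That balance rests on single libraries. Without Ahr-null female 1 the median over the members was -0.25 (0.02 over all genes), with 11 members at an unadjusted p under 0.05 (3306 of 13877 genes). Without Ahr-null male 2 the median was -0.23 (0.04 over all genes). With both neural-marked libraries left out the median was -0.29 (0.03 over all genes), with 9 members positive and 25 negative. Within both sexes at once, Ahr-null and control livers did not overlap for these 2 members alone, both lower, where 2.9% of all genes did not overlap, 1.28% as higher and 1.62% as lower. The labels name 1 liver per sample and say nothing of separate litters or batches, so p-values measure only the spread between these samples.

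**Figure D1:**
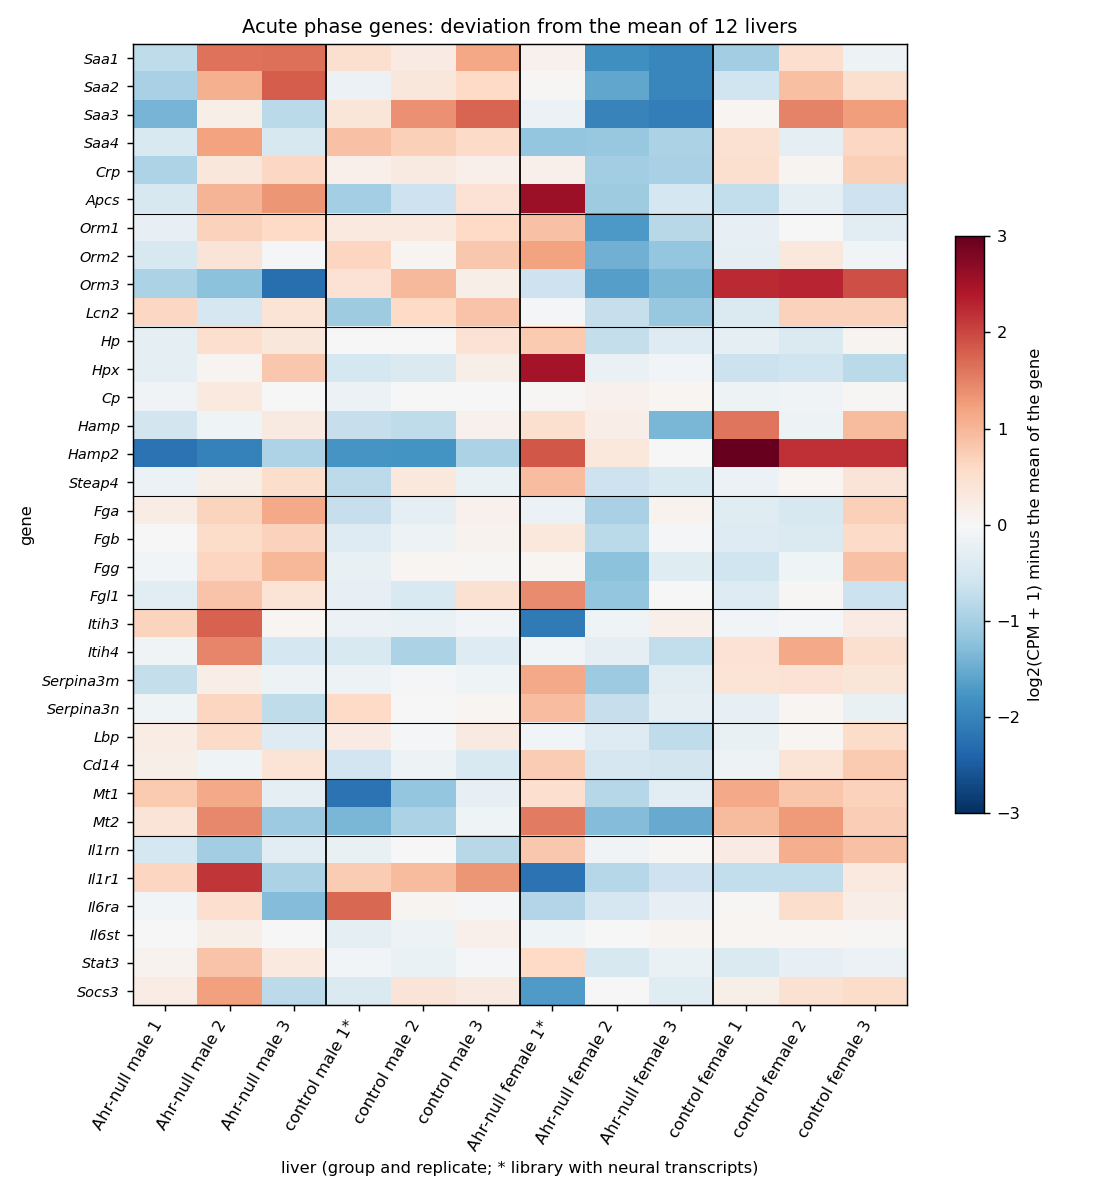
Deviation of each of the 34 genes (rows, grouped by role) from its own mean over 12 livers (columns), as log2(CPM + 1), with colours cut at 3 in either direction. Orm3 is low in all 6 Ahr-null livers, and Hamp2 is low in all 6 males.

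Orosomucoids, also called alpha-1-acid glycoproteins, are plasma carriers that damp inflammation. Mice have 3 copies in a row within 21.3 kb of chromosome 4 (chr4:63344560-63365878, GRCm38). Orm3 (ENSMUSG00000028359, chr4:63356162-63359511) had 5.41, 4.27 and 1.58 CPM in Ahr-null males, against 15.7, 23.1 and 12.9 CPM in control males. In females, it had 6.98, 2.89 and 3.81 CPM in Ahr-null livers, against 56.7, 58.5 and 46 CPM in control livers. All 6 Ahr-null livers lay below all 6 controls, and control females lay well above control males.

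The difference averaged -2.89 ± 0.32 (log2, ± SE, 95% interval -3.57 to -2.20), a level 7.4-fold lower in Ahr-null livers (adjusted p = 0.00578). Of all 13641 genes, Orm3 had the smallest p in this comparison. Within the sexes the difference was -2.20 ± 0.44 in males (adjusted p = 0.179, not called) and -3.57 ± 0.46 in females (adjusted p = 0.011, called, 11.9-fold lower). The averaged call held with the 2 neural-marked libraries left out (-3.12 ± 0.30, adjusted p = 0.000774), and there the difference was called in males as well (-2.26 ± 0.39, adjusted p = 0.0397). The call in females was lost without any 1 of Ahr-null female 2, Ahr-null female 3 or the control females 1, 2 and 3, at adjusted p of 0.0965, 0.0615, 0.0854, 0.0906 and 0.0544 in that order. Its log2 fold change then stayed between -3.68 and -3.34.

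Orm1 and Orm2, the neighbours of Orm3, were not called. Orm1 averaged 453 ± 144 CPM in Ahr-null males and 452 ± 57.9 CPM in control males (SD, n = 3 each). In females it averaged 308 ± 282 CPM in Ahr-null livers and 299 ± 32.9 CPM in control livers, where the wide spread came from Ahr-null female 1 at 630.1 CPM. The averaged difference was 0.02 ± 0.37 for Orm1 (adjusted p = 0.986) and -0.25 ± 0.41 for Orm2 (adjusted p = 0.83). With the 2 neural-marked libraries left out Orm2 was called as lower (-0.91 ± 0.22, adjusted p = 0.0399) and Orm1 was not (-0.52 ± 0.25, adjusted p = 0.245).

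Within a liver, the ratio of Orm3 to Orm1 counts does not depend on library scaling. It was 0.0188, 0.00768 and 0.00306 in Ahr-null males, against 0.0373, 0.0553 and 0.0249 in control males. Among females it was 0.0111, 0.028 and 0.0200 in Ahr-null livers, against 0.198, 0.174 and 0.168 in control livers. This ratio spanned 64.5-fold over the 12 livers, while that of Orm2 to Orm1 spanned 1.98-fold, from 0.112 to 0.222. Ahr-null and control groups did not overlap in the Orm3 ratio within either sex. The transcripts are 86.5% identical between Orm3 and Orm1 and 88.5% between Orm3 and Orm2, with identical stretches of up to 65 and 75 bases, and how reads matching several copies were counted is not given in the sources used here. The Orm1, Orm2 and Orm3 values are therefore uncertain to the extent that reads were shared. Summed to 1 feature, the 3 genes differed by -0.13 ± 0.38 (adjusted p = 0.919), a sum in which Orm1 is by far the largest term.

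**Figure D2:**
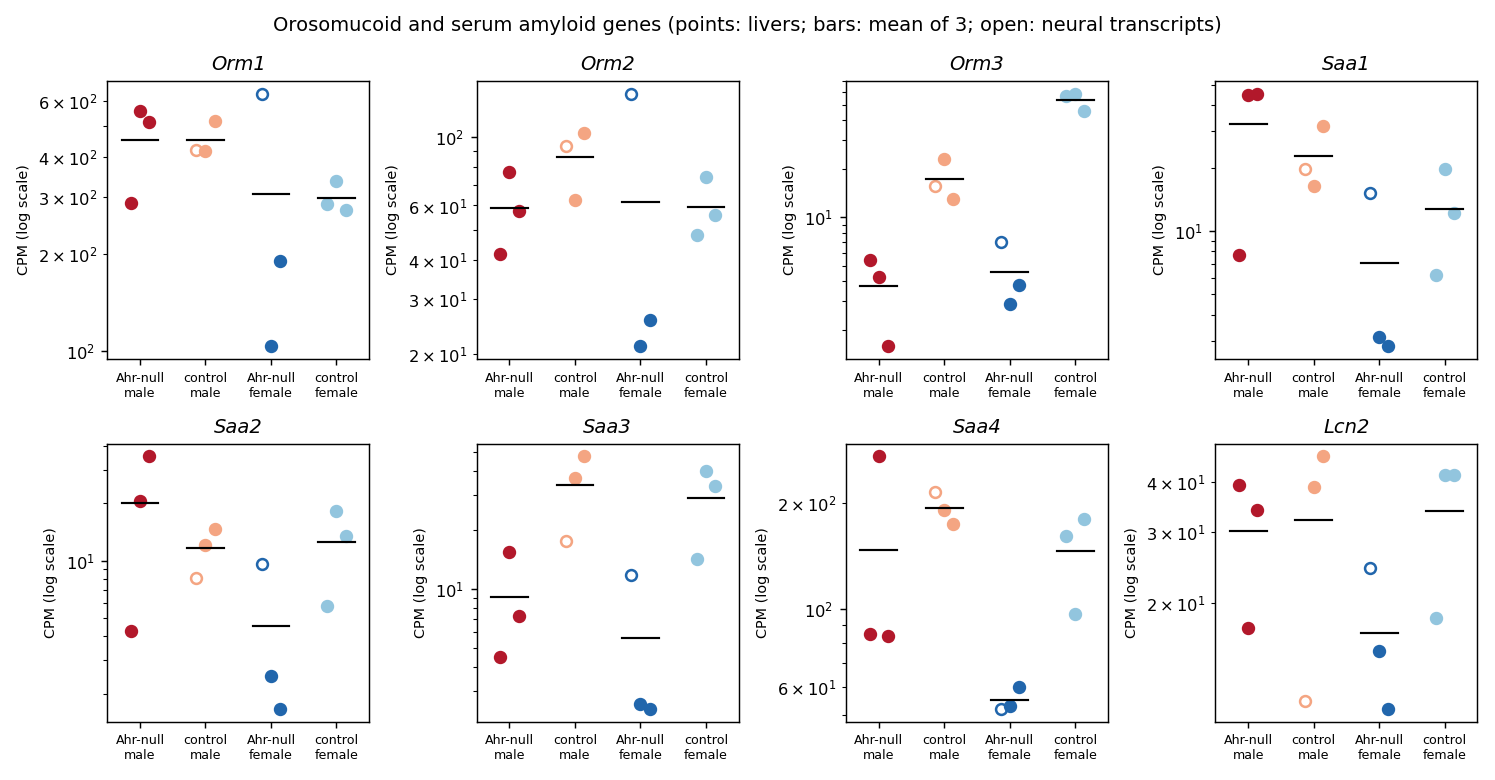
CPM of the orosomucoid, serum amyloid and Lcn2 genes in each liver (points, log axis) with the mean of 3 (bars), by group, with open points for the 2 neural-marked libraries. Orm3 and Saa3 are the genes whose Ahr-null points all lie below the control points in both sexes.

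**Figure D3:**
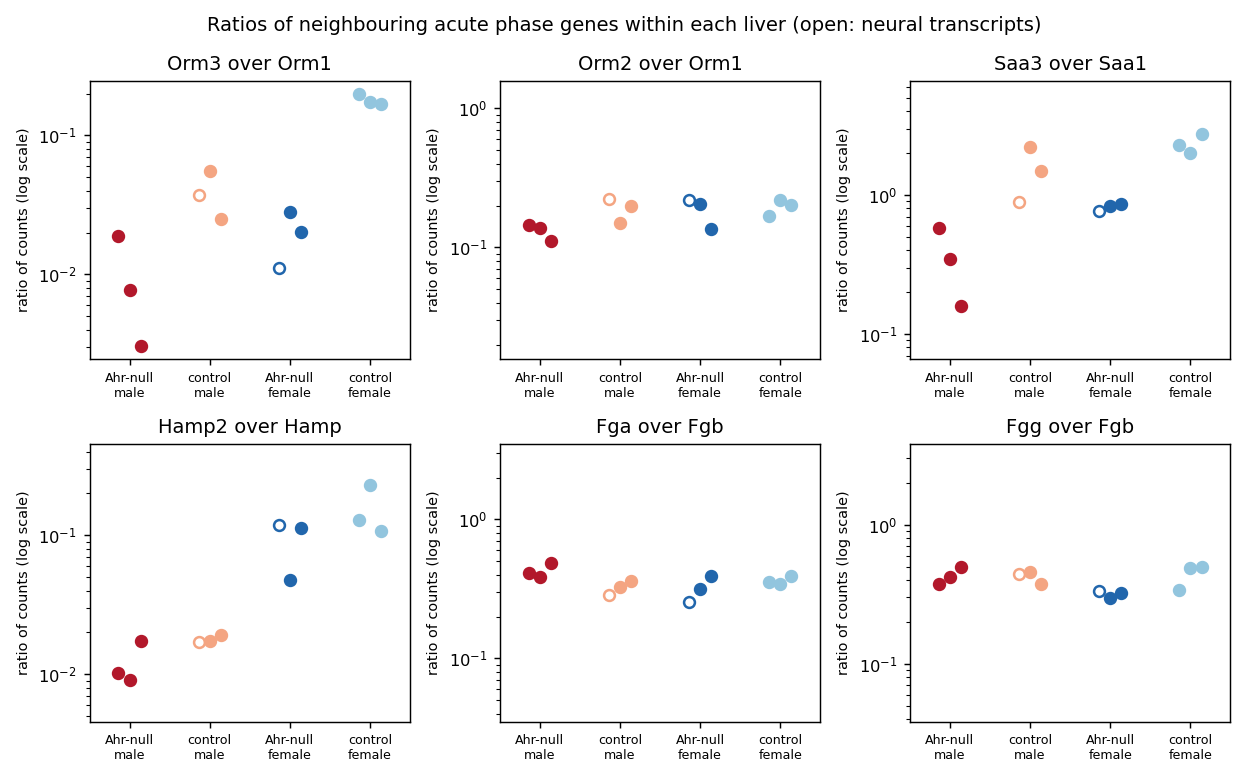
Ratio of counts between neighbouring genes within each liver (log axis, each panel spanning the same 100-fold). The Orm3 to Orm1 ratio spans 64.5-fold and the Hamp2 to Hamp ratio 25.4-fold, while Orm2 to Orm1 and the fibrinogen ratios stay within 1.98-fold.

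Lcn2, lipocalin 2, binds bacterial siderophores and is made by hepatocytes and neutrophils. Its level ran from 10.9 to 46.3 CPM, and its averaged difference was -0.55 ± 0.36 (adjusted p = 0.505), and -0.92 ± 0.27 (adjusted p = 0.0909) with the 2 neural-marked libraries left out. The neutrophil markers were close to absent, with 3 of 12 high enough to test and a sum of 9.99 to 19.6 CPM in Ahr-null livers and 9.01 to 23.9 CPM in control livers.

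Among the serum amyloids, which are apolipoproteins of high-density lipoprotein in inflammation, Saa3 was the called member. Saa3 (ENSMUSG00000040026, chr7:46711998-46715700) lies in a cluster of 4 within 42.3 kb of chromosome 7. It had 4.5, 15.4 and 7.22 CPM in Ahr-null males, against 17.6, 36.5 and 47.3 CPM in control males. In females Saa3 had 11.8, 2.59 and 2.43 CPM in Ahr-null livers, against 14.1, 39.6 and 33.6 CPM in control livers. The genotypes did not overlap within either sex. Across the sexes they did, since Ahr-null male 2 lay above control female 1.

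Saa3 fell by 2.16 ± 0.47 on the log2 scale (95% interval -3.17 to -1.15), a 4.47-fold lower level, at an adjusted p of 0.0475, just under the threshold. The difference was -1.92 ± 0.65 in males (adjusted p = 0.581) and -2.40 ± 0.67 in females (adjusted p = 0.168), neither called by edgeR, while DESeq2 called it in females. Leaving out any 1 of 10 of the 12 libraries ended the averaged call, at adjusted p of 0.0614 to 0.176; only without Ahr-null male 2 or Ahr-null female 1 did it hold (adjusted p = 0.032 and 0.00595). With the 2 neural-marked libraries left out it was -2.87 ± 0.38 (adjusted p = 0.0038), and it was called in females too (-3.51 ± 0.58, adjusted p = 0.0224). In the mouse Saa3 is also made by macrophages and fat cells. Of 12 Kupffer cell and macrophage markers 1, Marco, was called in the averaged comparison, and it was higher in Ahr-null livers (2.16 ± 0.34, adjusted p = 0.0148). The 12 summed to 354 to 679 CPM in Ahr-null livers and 324 to 737 CPM in control livers, and the 6 adipocyte markers to 6.82 to 13.2 CPM and 5.66 to 15.2 CPM. The part of these cells in the Saa3 result was not tested.

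Saa1 and Saa2, the acute phase isoforms carried in plasma, were not called. Saa1 had 7.73, 44.7 and 45.4 CPM in Ahr-null males, against 19.8, 16.5 and 31.9 CPM in control males. Among females it had 15.2, 3.13 and 2.82 CPM in Ahr-null livers, against 6.14, 19.9 and 12.2 CPM in control livers. Ahr-null males thus included both the highest levels of all livers and one of the low ones, and every group overlapped its counterpart. Saa2 had 4.26, 20.5 and 35.3 CPM in Ahr-null males, against 8.08, 12.1 and 14.7 CPM in control males. Its level was 9.55, 2.47 and 1.66 CPM in Ahr-null females, against 5.8, 18.2 and 13.4 CPM in control females. The averaged differences were -0.18 ± 0.50 (adjusted p = 0.915) for Saa1 and -0.35 ± 0.51 (adjusted p = 0.807) for Saa2. Leaving out the 2 neural-marked libraries gave -0.82 ± 0.52 (adjusted p = 0.41) and -0.99 ± 0.55 (adjusted p = 0.344). In females the differences were -0.87 ± 0.73 for Saa1 and -1.48 ± 0.74 for Saa2 with all libraries, and -2.07 ± 0.81 and -2.57 ± 0.87 with those left out (adjusted p = 0.186 and 0.138). The overlap of the females in both genes rests on Ahr-null female 1. Their transcripts are 94.4% identical, so the split of reads between them is uncertain, and their sum differed by -0.26 ± 0.50 (adjusted p = 0.866).

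Saa4, the constitutive serum amyloid, had 85, 272 and 83.7 CPM in Ahr-null males, against 216, 191 and 175 CPM in control males. It had 51.9, 53 and 60.1 CPM in Ahr-null females, against 161, 96.8 and 180.4 CPM in control females. The females did not overlap, whereas Ahr-null male 2 held the highest Saa4 level of all 12 livers. Its difference averaged -0.91 ± 0.30 (adjusted p = 0.182) and was -1.41 ± 0.44 in females (adjusted p = 0.195), neither called by edgeR. DESeq2 called Saa4 in females, and edgeR called it in the averaged comparison without Ahr-null male 2.

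The pentraxins Crp and Apcs recognise microbial and dead-cell surfaces; Apcs encodes serum amyloid P, the main acute phase pentraxin of the mouse. Crp had 15.9, 40.1 and 48.7 CPM in Ahr-null males, against 34.9, 37.6 and 34.7 CPM in control males. Crp had 35.2, 14.7 and 15.4 CPM in Ahr-null females, against 43.9, 33.1 and 51.9 CPM in control females. The Crp difference in females was -0.99 ± 0.42 (adjusted p = 0.303, not called), with Ahr-null female 1 inside the control range, and -1.49 ± 0.39 (adjusted p = 0.0679) when the neural-marked libraries were left out. Apcs had 9.11, 27.5 and 34.2 CPM in Ahr-null males, against 5.89, 8.13 and 17.9 CPM in control males. In females Apcs had 82.2, 5.65 and 8.73 CPM in Ahr-null livers, against 7.39, 10.6 and 8.08 CPM in control livers. The Apcs averages rest on Ahr-null female 1, the library with the most neural transcripts: the averaged difference of 1.51 ± 0.59 (adjusted p = 0.241) was 0.31 ± 0.35 (adjusted p = 0.671) without it and control male 1.

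Of the haem and iron genes edgeR called none between the genotypes with all libraries, DESeq2 called Hpx in females, and the Hpx values turned on 1 liver. Hpx had 968, 1240.1 and 2071 CPM in Ahr-null males, against 815, 873 and 1323 CPM in control males. Hpx had 6604, 1017 and 1112 CPM in Ahr-null females, against 749.5, 773 and 671 CPM in control females. All 3 Ahr-null females exceeded the 3 control females, with Ahr-null female 1 far above the other 2. The difference in females was 1.99 ± 0.64 (adjusted p = 0.207) with all libraries and 0.56 ± 0.36 (adjusted p = 0.397) with the 2 neural-marked libraries left out. The same liver had 55134 CPM of albumin (Alb), where the other livers had at most 22047 CPM, and its hepatocyte markers summed to 74208 CPM.

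Haptoglobin, ceruloplasmin and Steap4 were not called. Hp ran from 1448 to 4113 CPM and differed by 0.15 ± 0.30 (adjusted p = 0.866, 95% interval -0.49 to 0.80). Cp, the copper-carrying ferroxidase, ran from 1000.4 to 1400.3 CPM and differed by 0.13 ± 0.20 (adjusted p = 0.808, 95% interval -0.29 to 0.56). Steap4, a metalloreductase, ran from 2.61 to 10.9 CPM (averaged difference 0.22 ± 0.34, adjusted p = 0.825); in females it was 0.01 ± 0.48, and -0.77 ± 0.33 with the 2 neural-marked libraries left out.

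Hamp encodes hepcidin, the hormone that closes the iron exporter ferroportin. Its neighbouring copy Hamp2 lies with it within 21.7 kb of chromosome 7 (chr7:30922372-30944032). Hamp had 221, 300.1 and 397 CPM in Ahr-null males, against 201, 192 and 358 CPM in control males. In females Hamp had 458, 374 and 127 CPM in Ahr-null livers, against 999.7, 294 and 635 CPM in control livers. These ranges overlapped in both sexes, and the averaged difference was -0.36 ± 0.37 (adjusted p = 0.701). Hamp2 had 2.25, 2.71 and 6.95 CPM in Ahr-null males, against 3.45, 3.33 and 6.82 CPM in control males. Hamp2 had 54.1, 17.9 and 14.2 CPM in Ahr-null females, against 129, 67.5 and 68 CPM in control females. In females the genotypes did not overlap and in males they did. The difference in females was -1.62 ± 0.56 (adjusted p = 0.226, not called), and it was called with the 2 neural-marked libraries left out (-2.44 ± 0.49, adjusted p = 0.034). The averaged difference was -0.91 ± 0.40 (adjusted p = 0.298), and it was called without Ahr-null female 1 alone.

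The fibrinogen chains, which polymerise into clots, stayed in similar proportions to each other. The ratio of Fga to Fgb counts lay between 0.254 and 0.484 in all 12 livers (1.90-fold), and that of Fgg to Fgb between 0.297 and 0.493 (1.66-fold). Fga had 313, 426 and 590.0 CPM in Ahr-null males, against 167, 222 and 294 CPM in control males. It had 239, 137 and 288 CPM in Ahr-null females, against 208, 191 and 440.0 CPM in control females. The Ahr-null males lay above the control males without overlap, and the females overlapped. Differences in males were 0.96 ± 0.42 for Fga, 0.57 ± 0.39 for Fgb and 0.63 ± 0.44 for Fgg, and in females -0.34 ± 0.42, -0.11 ± 0.39 and -0.60 ± 0.44 in the same order. None was called, the smallest adjusted p being 0.562. Fgl1, a fibrinogen-like protein that hepatocytes secrete, ran from 92.1 to 561 CPM with its highest value in Ahr-null female 1 (averaged difference 0.60 ± 0.39, adjusted p = 0.501, and 0.10 ± 0.30 with adjusted p = 0.896 when the neural-marked libraries were left out).

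Itih3 and Itih4 encode heavy chains of the inter-alpha-trypsin inhibitor family, of which Itih3 stabilises hyaluronan and Itih4 is the acute phase form. Itih3 had 1026, 2193 and 669 CPM in Ahr-null males, against 569, 561 and 609 CPM in control males. Itih3 had 146, 588 and 715 CPM in Ahr-null females, against 605, 618 and 768 CPM in control females. Ahr-null males lay above control males without overlap, most of all Ahr-null male 2, while Ahr-null female 1 was the lowest of all livers. Itih4 had 438, 1290.1 and 326 CPM in Ahr-null males, against 342, 244 and 359.8 CPM in control males. Itih4 had 446, 389.5 and 281 CPM in Ahr-null females, against 638, 1036 and 653 CPM in control females. Females thus did not overlap, with Ahr-null livers lower, and males did. The Itih4 difference was 1.12 ± 0.48 in males and -1.06 ± 0.47 in females (adjusted p = 0.788 and 0.334, neither called). Serpina3n, a secreted serine protease inhibitor, ran from 70.6 to 231 CPM and its 81.8% identical neighbour Serpina3m from 10.4 to 51.7 CPM. Their averaged differences were 0.04 ± 0.31 for Serpina3n and -0.14 ± 0.32 for Serpina3m (adjusted p = 0.972 and 0.889), and -0.16 ± 0.24 and -0.59 ± 0.20 with the 2 neural-marked libraries left out. The Itih3 difference in females was -0.46 ± 0.53, and -0.01 ± 0.42 with those left out.

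The endotoxin-handling pair was not called either. Lbp, which passes lipopolysaccharide to its receptor, ran from 27.1 to 69.3 CPM (averaged difference -0.26 ± 0.22, adjusted p = 0.621). Cd14, the co-receptor of macrophages and of stimulated hepatocytes, ran from 1.68 to 5.83 CPM (averaged difference 0.15 ± 0.34, adjusted p = 0.891). In females Cd14 differed by -0.46 ± 0.48, and by -1.23 ± 0.39 with the 2 neural-marked libraries left out (adjusted p = 0.101).

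Metallothioneins bind zinc and copper and are induced by IL-6, glucocorticoid and metals. Mt1 had 240.5, 310.1 and 115 CPM in Ahr-null males, against 29.5, 61.8 and 118 CPM in control males. Mt1 had 198, 77 and 111 CPM in Ahr-null females, against 310.0, 251 and 226 CPM in control females. Ahr-null males were mostly above control males, and all Ahr-null females were below all control females. The difference was 1.67 ± 0.52 in males (adjusted p = 0.49) and -1.03 ± 0.51 in females (adjusted p = 0.379), so the averaged value of 0.32 ± 0.36 (adjusted p = 0.73) describes neither sex. The lowest Mt1 level belonged to control male 1, and with the 2 neural-marked libraries left out the difference in males was 1.31 ± 0.41 (adjusted p = 0.31) and in females -1.46 ± 0.41 (adjusted p = 0.0795). Mt2, whose transcript is 72.3% identical to that of Mt1, ran from 2.82 to 30.9 CPM, with differences of 1.43 ± 0.84 in males and -0.78 ± 0.82 in females (adjusted p = 0.933 and 0.701). With the same libraries left out the Mt2 differences were 1.14 ± 0.63 and -2.72 ± 0.68 (adjusted p = 0.754 and 0.0753).

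Receptors and STAT3 control gave no call by edgeR with all libraries between the genotypes. Il6ra, the receptor chain that binds IL-6, had 82.7, 125 and 34.9 CPM in Ahr-null males, against 292, 92.8 and 85.3 CPM in control males. Il6ra had 46.8, 61.4 and 73.9 CPM in Ahr-null females, against 89.9, 127 and 101 CPM in control females. Females did not overlap, with Ahr-null livers lower, and the highest level was that of control male 1. The averaged difference was -0.88 ± 0.36 (adjusted p = 0.264), and -0.39 ± 0.27 (adjusted p = 0.457) with the 2 neural-marked libraries left out. In males it was -0.96 ± 0.51, and -0.14 ± 0.39 without them. Il6st, which encodes the shared signalling chain gp130, ran from 46.1 to 63.8 CPM, with a difference of 0.05 ± 0.16 (adjusted p = 0.923, 95% interval -0.29 to 0.39). Stat3, the transcription factor downstream, ran from 32.7 to 83.9 CPM and differed by 0.45 ± 0.22 (adjusted p = 0.349). Its feedback inhibitor Socs3 ran from 4.13 to 37.8 CPM and differed by -0.33 ± 0.36 (adjusted p = 0.723). Il1r1, the signalling IL-1 receptor, ran from 5.79 to 138 CPM and Il1rn, the receptor antagonist, from 1.4 to 9.49 CPM, with averaged differences of -0.36 ± 0.45 and -0.46 ± 0.30 (adjusted p = 0.762 and 0.497).

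Taken by sex, the genotype difference was called for Orm3 in females and for no member in males. Among males edgeR called 0 of the 34 genes, where 0.0367% of all genes were called (0.0147% as higher and 0.022% as lower), and 5 members had an unadjusted p under 0.05 (5.81% of all genes did). DESeq2 called 1 in males, Orm3, where it called 0.777% of all genes. Limma called 0 on either the counts or the deposited values. The 5 members became 10 without Ahr-null female 1 (1546 of 13877 genes) and 3 without control male 1 (541 of 13890 genes). In females 1 member, Orm3, was called as lower, where 0.161% of all genes were called, 0.0293% as higher and 0.132% as lower. DESeq2 called 4 in females, Hpx as higher and Orm3, Saa3 and Saa4 as lower, where it called 3.6% of all genes. Limma called Orm3 alone. With edgeR 8 members had an unadjusted p under 0.05 in females, against 14.4% of all genes. Without Ahr-null female 1 that number was 18 (2707 of 13877 genes), with both neural-marked libraries left out 19 (2944 of 13768 genes), and without control female 3 it was 5 (1349 of 14481 genes). The median log2 fold change of the members was 0.22 in males, against 0.00 over all genes, and -0.56 in females, against 0.06. In males 23 members were positive and 11 negative, and in females 10 were positive and 24 negative. Single libraries left out gave medians of 0.10 to 0.38 in males and -0.92 to -0.33 in females. Without the pair of neural-marked libraries the female median was -0.92, against 0.03 over all genes, with 3 members positive and 31 negative, and the male median was 0.10, with 21 positive and 13 negative. Groups did not overlap for 4 members as higher and 2 as lower in Ahr-null males, where 13.9% of all genes did not overlap, 6.55% as higher and 7.34% as lower. In females, 1 member was higher and 8 were lower in Ahr-null livers without overlap, where 19.1% of all genes did not overlap, 9.22% as higher and 9.86% as lower.

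**Figure D4:**
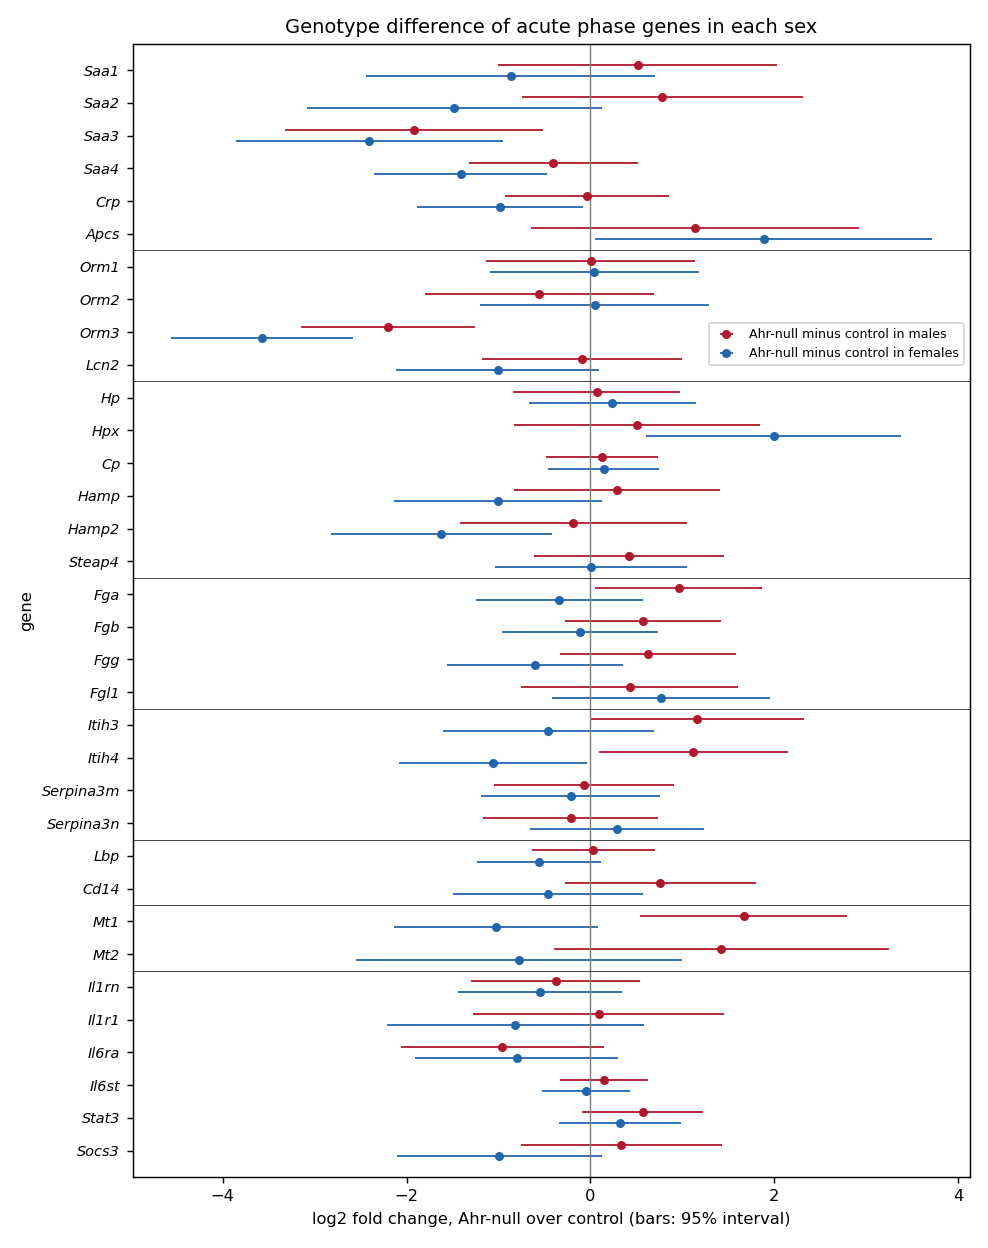
Log2 fold change of Ahr-null over control livers (points) with its 95% interval (bars) for the 34 genes, in males and in females. Orm3 and Saa3 lie left of 0 in both sexes, and Mt1 and Itih4 lie on opposite sides of 0.

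The difference between the sexes in the genotype effect was tested itself, and edgeR called 0 of the 34 genes, where 0.00733% of all genes were called (1 of 13641). DESeq2 and limma called 0 of the members as well, and 5 members had an unadjusted p under 0.05 with edgeR (4.6% of all genes did). Those 5 members became 16 without Ahr-null female 1 (938 of 13877 genes) and 11 with both neural-marked libraries left out (1001 of 13768 genes). They became 3 without control male 2 (1108 of 14493 genes), control male 3 (1032 of 14473 genes) or control female 3 (842 of 14481 genes). Without Ahr-null male 2 (876 of 14487 genes) or control male 1 (388 of 13890 genes) they became 2. Mt1 had the smallest p, with a difference of 2.70 ± 0.73 in males minus females (adjusted p = 0.836), followed by Itih4 with 2.18 ± 0.67 (adjusted p = 0.871). Orm3 with 1.37 ± 0.60, Saa2 with 2.26 ± 1.03, Fga with 1.30 ± 0.59 and Itih3 with 1.62 ± 0.75 came next, each at an adjusted p of 0.999. The median over the members was 0.80, against -0.04 over all genes, and ran from 0.42 to 1.09 without single libraries. These values share their livers with the comparisons within each sex.

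Between the sexes, Hamp2 was the member that differed. Control males had 3.45, 3.33 and 6.82 CPM, against 129, 67.5 and 68 CPM in control females, and the groups were far apart. Hamp2 was 19.3-fold lower in control males (-4.27 ± 0.63 on the log2 scale, adjusted p = 0.00739), the 1 member called among controls, where 0.352% of all genes were called, 0.198% as higher and 0.154% as lower. Without control male 1, control male 2 or control female 1 the call was lost (adjusted p = 0.0709, 0.125 and 0.0598), with differences of -4.11, -4.08 and -3.88. In Ahr-null livers the same comparison gave -2.84 ± 0.59 (adjusted p = 0.0819), without overlap, and -1.98 ± 0.47 (adjusted p = 0.0835) with the 2 neural-marked libraries left out. EdgeR called no member there, where 0.279% of all genes were (0.227% as higher and 0.0513% as lower). There 9 members had an unadjusted p under 0.05 with edgeR (8.68% of all genes did). DESeq2 called 2, Hamp2 and Il1r1, where it called 1.66% of all genes, and limma called 0. Those 9 members became 21 without Ahr-null female 1 (1875 of 13877 genes), 20 with both neural-marked libraries left out (2042 of 13768 genes) and 3 without Ahr-null male 2 (767 of 14487 genes). The median over the members was 0.42 with all libraries, 0.95 without Ahr-null female 1 and 0.14 without Ahr-null male 2.

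The Hamp2 to Hamp ratio carried the same contrast within each liver. It was 0.0102, 0.00905 and 0.0175 in Ahr-null males, against 0.0171, 0.0173 and 0.019 in control males. In females it was 0.118, 0.0479 and 0.112 in Ahr-null livers, against 0.129, 0.23 and 0.107 in control livers. Every male lay below every female, and the genotypes overlapped in both sexes. Hamp itself differed by -1.36 ± 0.53 between control males and control females (adjusted p = 0.72). The transcripts of the pair are 94.6% identical, with a shared stretch of 87 bases, so their split is uncertain. Their sum, in which Hamp is the larger term, differed by -1.52 ± 0.52 between control males and control females (adjusted p = 0.582).

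**Figure D5:**
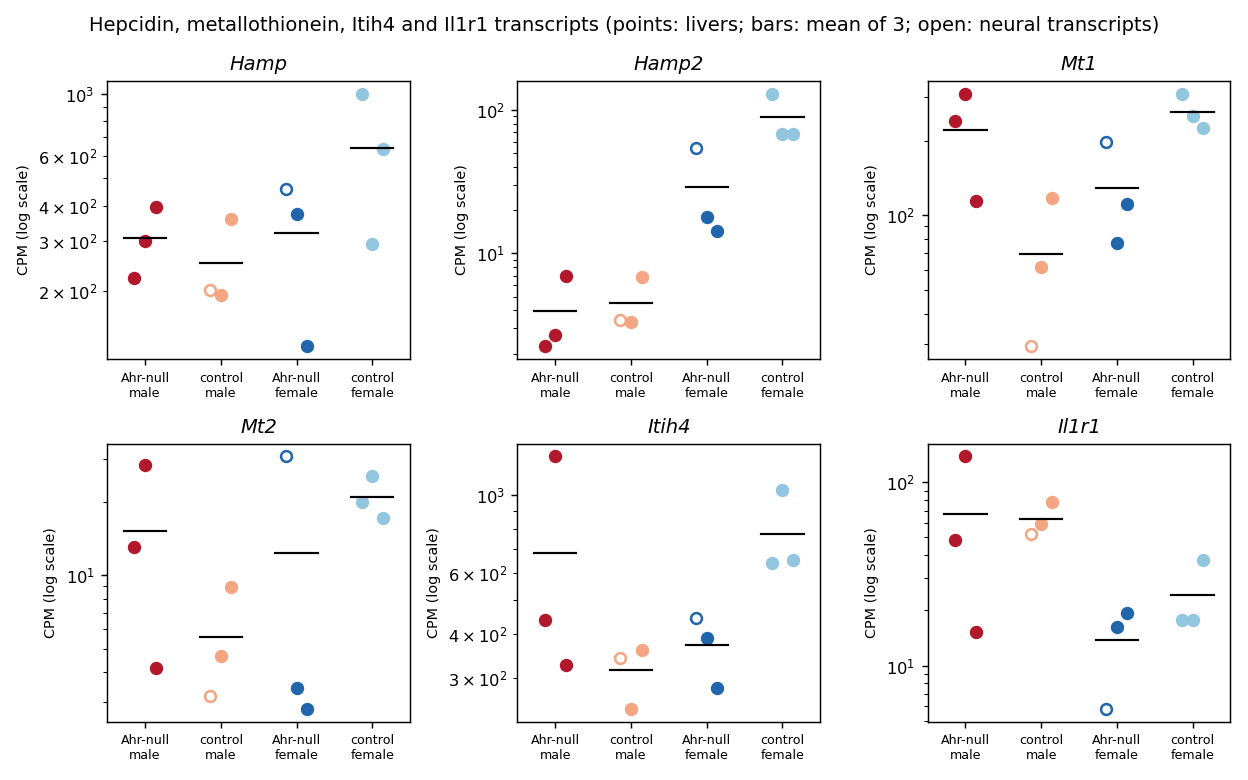
CPM of Hamp, Hamp2, Mt1, Mt2, Itih4 and Il1r1 in each liver (points, log axis) with the mean of 3 (bars), by group, with open points for the 2 neural-marked libraries. Hamp2 is 14.2 CPM or more in every female and at most 6.95 CPM in every male.

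Other sex differences did not pass edgeR's test with all libraries. In control livers DESeq2 called Mt1 and Orm3 as well as Hamp2, where it called 1.04% of all genes, and limma called Hamp2 alone. EdgeR fitted to control livers alone called Il1r1, Itih4, Mt2 and Orm3 as well, where it called 1.5% of all genes. In control livers 3 members were higher and 7 lower in males without overlap, where 18.6% of all genes did not overlap (9.38% as higher and 9.19% as lower). There 7 members had an unadjusted p under 0.05 (5.79% of all genes did), a number that was 4 without control male 2 (734 of 14493 genes). The lower ones without overlap were Orm3 (-1.64 ± 0.42, adjusted p = 0.235), Hamp2, Itih4 (-1.30 ± 0.48), Serpina3m (-0.53 ± 0.45), Mt1 (-1.91 ± 0.52), Mt2 (-1.89 ± 0.85) and Il1rn (-1.32 ± 0.42). The higher ones were Orm1 (0.60 ± 0.53), Hpx (0.46 ± 0.62) and Il1r1 (1.37 ± 0.65). Il1rn had 3.2, 3.95 and 1.78 CPM in control males, against 4.83, 9.49 and 8.08 CPM in control females. Of the 12 Kupffer cell and macrophage markers, 9 were also lower in control males without overlap and 0 were called, with a sum of 324 to 413 CPM in control males and 538 to 737 CPM in control females. Their part in the Il1rn difference was not tested.

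In Ahr-null livers Il1rn had 2.41, 1.4 and 2.96 CPM in males, against 7.71, 3.61 and 4.03 CPM in females (-1.15 ± 0.42, adjusted p = 0.469). Il1r1 ran the other way, at 48.2, 138 and 15.3 CPM in Ahr-null males, against 5.79, 16.2 and 19.3 CPM in Ahr-null females (2.28 ± 0.67, adjusted p = 0.281). In control livers Il1r1 had 52.1, 59.3 and 77.6 CPM in males, against 17.7, 17.8 and 37.5 CPM in females (1.37 ± 0.65, adjusted p = 0.87). Males were higher on average in both genotypes, without overlap in controls and with Ahr-null male 3 among the females in Ahr-null livers. Saa1, Saa2 and Saa4 differed by 2.23 ± 0.74, 2.17 ± 0.75 and 1.42 ± 0.44 between Ahr-null males and Ahr-null females (adjusted p = 0.403, 0.421 and 0.321), of which Saa4 alone did not overlap. With the 2 neural-marked libraries left out Saa1 differed by 3.46 ± 0.84 and Saa2 by 3.29 ± 0.88 (adjusted p = 0.118 and 0.151). Groups did not overlap for 2 members as higher and 2 as lower in Ahr-null males, where 11.2% of all genes did not overlap, 4.83% as higher and 6.38% as lower.

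Many members had their high or low values in the same livers. The same counts were not made over all genes, so the pattern cannot be taken as particular to this set. In Ahr-null male 2, 28 of the 34 genes stood above their own mean and 10 reached their highest value. Ahr-null female 2 was the reverse, with 4 above the mean and 11 at their lowest, and Ahr-null female 3 had 7 above and 7 at their lowest. Ahr-null female 1 held 10 of the highest values and 4 of the lowest. Orm1, Hp, Apcs, Hpx, Fgl1 and Mt2 were among the genes at their highest there. With both neural-marked libraries left out, 14 of the 34 differences in females moved by over 1.5-fold and 9 changed sign, among them Apcs, at -0.25 ± 0.51 in place of 1.89 ± 0.85. Of the averaged differences 7 moved as far and 9 changed sign, and of those between Ahr-null males and females 15 and 8. Replicates carry no order, and what sets these livers apart was not tested.

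Further genes of the pathway were read from 6 lists of 93 genes, of which 92 were found, with Hfe2 not matched by name. In the averaged comparison edgeR called 0 of the 83 tested, where 1.06% of all genes were called, and 17 had an unadjusted p under 0.05 (15.3% of all genes did). Limma called 0 as well, and DESeq2, which called 4.87% of all genes, called 6: Ahsg, Alb, Cebpb, Id1, Serpina10 and Slc30a10. EdgeR called 4 with the 2 neural-marked libraries left out: Cebpb (-0.83 ± 0.18, adjusted p = 0.028), Osmr (1.12 ± 0.26, adjusted p = 0.034), Slc30a10 (-0.995 ± 0.25, adjusted p = 0.0464) and Cebpa (-0.69 ± 0.18, adjusted p = 0.0491), the last named after its values were seen. That fit called 3.14% of all genes. Of 18 further positive acute phase proteins 15 were tested, and 13 were positive (median 0.19), with Serpina10, a protein Z-dependent inhibitor, at 0.61 ± 0.19 (adjusted p = 0.155). Of 12 negative acute phase proteins 10 were positive (median 0.32). Among these Alb, albumin, differed by 1.14 ± 0.38 (adjusted p = 0.184) and Ahsg, fetuin A, by 0.92 ± 0.29 (adjusted p = 0.158), both higher in Ahr-null livers without overlap within either sex but not called by edgeR. Leaving out the 2 neural-marked libraries gave 0.62 ± 0.31 (adjusted p = 0.273) and 0.76 ± 0.29 (adjusted p = 0.159). The 8 hepatocyte markers, Alb among them, summed to 24436 to 74208 CPM in Ahr-null livers and 20037 to 26670 CPM in control livers, and their part in these values was not tested. The list of cytokines and receptors held 12 tested genes of 18, 6 of them positive. Il6 had 1 count in 1 library, and Il22 had no count in any. Osmr, the oncostatin M receptor, differed by 1.02 ± 0.35 (adjusted p = 0.188) and Il1a, an IL-1 cytokine, by -0.60 ± 0.20 (adjusted p = 0.188).

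Of 21 genes of JAK-STAT, C/EBP and NF-kB control 13 were negative (median -0.21). Cebpb, a C/EBP activator of acute phase promoters, had 112, 110.0 and 71.3 CPM in Ahr-null males, against 182, 108 and 104 CPM in control males. It had 55.3, 38.1 and 27.9 CPM in Ahr-null females, against 108, 98.6 and 88.3 CPM in control females. Nfkbia, the inhibitor that holds NF-kB in the cytoplasm, differed by -0.59 ± 0.20 (adjusted p = 0.191). The Cebpb females did not overlap, and its averaged difference was -0.85 ± 0.23 (adjusted p = 0.109, not called). Cebpd, its relative, was called between the sexes in Ahr-null livers, at 6.0, 7.06 and 6.51 CPM in males, against 2.57, 1.86 and 1.93 CPM in females (1.62 ± 0.28, adjusted p = 0.0305). Leaving out single libraries ended that call in 9 of 12 cases. Between the sexes in Ahr-null livers edgeR and limma called 2 of the 83 pathway genes, Cebpd and Slc30a10, where edgeR called 0.279% of all genes. DESeq2 called 5 there, adding Cebpb, Serpina6 and Tsc22d3, where it called 1.66% of all genes. In the averaged comparison Id1 had the smallest p of 15 tested genes of hepcidin and iron control, at 0.92 ± 0.26 (adjusted p = 0.115). Id1 is a target of the BMP signal that drives hepcidin.

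Of 8 genes of metallothionein and zinc control, Slc30a10, a manganese exporter, was called. Slc30a10 had 32.4, 46.5 and 19.2 CPM in Ahr-null males, against 20.0, 33.3 and 26.5 CPM in control males. Slc30a10 had 7.44, 8.66 and 5.74 CPM in Ahr-null females, against 41.5, 30.8 and 22.7 CPM in control females. Ahr-null females were the low group, apart from all others. It fell by 2.12 ± 0.36 in Ahr-null females against control females (adjusted p = 0.0409), and it was higher in Ahr-null males than in Ahr-null females by 2.16 ± 0.36 (adjusted p = 0.0221). The first call was lost without single libraries in 10 of 12 cases and the second in 8 of 12. The difference of the genotype effects between the sexes was 2.42 ± 0.49 (adjusted p = 0.76) and was called by DESeq2 alone. In females edgeR and limma called 1 of the 83 pathway genes, Slc30a10, where edgeR called 0.161% of all genes. DESeq2 called 4 in females, adding Cebpb, Onecut1 and Tsc22d3, where it called 3.6% of all genes. Between the sexes in control livers edgeR and limma called 0. DESeq2 called 4 there, C9, Cish, Onecut1 and Socs2, where it called 1.04% of all genes.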

How the data were processed

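The authors' deposited count table held raw counts per gene for 12 liver libraries, with a second deposited table of variance-stabilised values on a log2 scale. Per the labels' protocols, livers of mice flushed with buffer gave RNA by a Micro RNeasy kit at an average RIN of 7. The submitters' processing notes name Trim Galore 0.6.5, FastQC 0.11.8, STAR 2.7.8, DESeq2 1.28.1 and build GRCm38. Not given in the sources used here were the counter, its use of strand and of reads matching several genes, and the annotation.

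From the counts, edgeR 4.0.16 (R 4.3.3) tested 13641 genes that passed filterByExpr, with TMM scaling, the 4 groups in 1 robust quasi-likelihood fit with 8 residual degrees of freedom, 6 contrasts, and Benjamini-Hochberg adjustment over all genes at 0.05. Alternatives used DESeq2 1.42.0, limma 3.58.1, other scalings, filters and samples. CPM are TMM-scaled. RPKM use GENCODE M21 exon lengths, and gene coordinates are of that annotation on GRCm38. Members and lists were chosen with earlier results of these data known. Members called, or with the 6 smallest p in a contrast, are given by library, with the other members as ranges. Of the pathway lists, called genes and up to 3 with the smallest p are named. Replicate numbers follow accession order. Interactions are males minus females. Precision rests on 9794253 to 18924880 counts a library. Intervals are at 95%.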

Additional observations from a re-analysis of the deposited data

How the results depend on the processing

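The averaged comparison called 2 members, and its count was 1 with RLE scaling, with no filter on low counts, with a mean CPM of at least 1 (each time without Saa3) and with near-identical copies summed (Saa3 alone, Orm3 being part of a sum). It was 4 with scaling by library size alone, which added Hpx and Stat3 as higher and moved the all-gene median of log2 fold changes to 0.53, and 3 with the 2 neural-marked libraries left out. Leaving out single libraries gave 1 to 4. In males the count of 0 became 1 with DESeq2 and 1 with the 2 neural-marked libraries left out, and 0 to 1 without single libraries. In females the count of 1 became 4 with DESeq2, 0 with only the groups compared, 0 with copies summed and 3 with the 2 neural-marked libraries left out, and 0 to 3 without single libraries. With copies summed Orm3 was part of a sum, so its call in females could not recur. The interaction gave 0 under every alternative that could be fitted, single libraries left out included. Between the sexes, Ahr-null livers gave 2 with DESeq2 in place of 0, and 0 without any single library. Control livers gave 3 with DESeq2, 5 with only the groups compared and 0 with copies summed in place of 1, and 0 to 2 without single libraries. Hamp2 was likewise part of a sum when copies were summed, so its call could not recur. Of 909 values under alternatives, for called genes and the 6 members with the smallest p in each comparison, 836 stayed on their side of the threshold, 54 lost and 19 gained a call, and 0 changed sign. These include genes never called, which keep their side by staying uncalled. Of the called members, leaving out 1 of 12 libraries ended the call in 0 cases for Orm3 averaged, 5 for Orm3 in females, 10 for Saa3 and 3 for Hamp2. For Cebpd it was 9, and for the Slc30a10 calls 10 and 8. Over all 34 members signs did change with the 2 neural-marked libraries left out, for 9 members averaged, 9 in females, 2 in males, 7 in the interaction, 8 between the sexes in Ahr-null livers and 4 in control livers. Over all genes the averaged count of 144 became 664 with DESeq2, 1053 with library size alone and 432 with the 2 neural-marked libraries left out, and 6 to 663 without single libraries. DESeq2 called 0.777% of all genes in males, 3.6% in females, 1.66% between the sexes in Ahr-null livers and 1.04% in control livers. With the 2 neural-marked libraries left out, edgeR called 0.196% in males and 1.71% in females. No averaged or interaction value could be had from only the groups compared. No paired analysis was possible because the replicate numbers follow accession order and pair no livers. With 3 livers a group, values of low genes such as Saa3, Hamp2 and Il1rn rest on few counts in some libraries.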
